A study of Arabidopsis thaliana with 12 samples.

Results

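The 40 genes described here form the cyclin, cyclin-dependent kinase (CDK) and CDK inhibitor module of Arabidopsis thaliana, among 23911 genes in the deposited count table. They were taken from the table by a list of locus identifiers and fall into 6 classes: 9 B-type, 7 A-type and 10 D-type cyclins, 5 CDKs (CDKA;1 and 4 CDKB kinases), 7 KRP inhibitors, and 2 inhibitors of the SIAMESE family, SIM and SMR1. All 40 identifiers were in the table, and 39 had enough counts to be tested. The exception was CYCD7;1 (AT5G02110), a D-type cyclin, whose level lay between 0 and 0.281 CPM in the 12 libraries, CPM being counts scaled to library size by edgeR.

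Cyclins bind CDKs and set when and on what these kinases act. D-type cyclins pair with CDKA;1 to start the cycle by phosphorylating the retinoblastoma-related protein RBR1, A-type cyclins act from S phase into mitosis, and B-type cyclins with CDKA;1 and the plant-specific CDKB kinases drive mitosis. KRP proteins and the SIM/SMR proteins bind and inhibit cyclin-CDK complexes, and SIM and SMR1 are known for the switch from division to endoreplication in trichomes and sepals. In seedlings, dividing cells are found mainly in the meristems, in young leaves and in the stomatal lineage. KRP1, also called ICK1, is known as a CDK inhibitor gene that responds to abscisic acid (ABA), the hormone that plants make when water runs short.

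The study compared Col-0 wild type with the mutant hda9-1, which is affected in HDA9, a histone deacetylase gene. Seedlings of both genotypes were 2 to 3 weeks old and were either left untreated or sprayed with ABA at 50 µM and collected 4 h later, with 3 libraries in each of the 4 groups. Plates held 1% sucrose and stood at 20 °C with 16 h of light. Since untreated columns are named 0 h and a mock spray is not mentioned, the effects of ABA, of spraying, of elapsed time and of time of day cannot be told apart. The labels call the libraries biological replicates without naming separate cultures, so p-values measure the spread between these libraries, which may be technical. Groups follow the sample titles, because a separate treatment label marks every wild-type library as untreated and every hda9-1 library as ABA-treated.

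Library totals lay between 42703802 and 52820930 counts. HDA9 itself was at 32.9% of the wild-type level in hda9-1 without ABA and at 31.2% with ABA. A protocol note mentions buds, but the summed level of 5 floral organ markers was only 0.427 to 1.88 CPM. In whole seedlings, fewer dividing cells and less RNA per dividing cell cannot be told apart. Some libraries stood apart within their groups across the cyclins: of 25 tested cyclins, 20 were lowest in wild type with ABA replicate 3 among its group, 19 were lowest in hda9-1 without ABA replicate 1, 19 were highest in hda9-1 without ABA replicate 3, and 19 were highest in hda9-1 with ABA replicate 3.

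Levels per length, as CPM per kilobase of annotated exon (RPKM), spanned a wide range within the module in untreated wild type. CDKA;1 was highest at a mean of 41.7 RPKM, followed by the D-type cyclin CYCD3;2 at 39.97 RPKM. The most abundant A-type cyclin was CYCA3;2 (AT1G47210) at 16.8 RPKM, the most abundant B-type cyclin was CYCB1;2 (AT5G06150) at 12.7 RPKM, and the inhibitors SMR1 and SIM stood at 13.1 and 12.3 RPKM. The KRP genes ranged from 0.553 RPKM for KRP3 to 9.99 RPKM for KRP4. At the low end, the A-type cyclin CYCA2;1 (AT5G25380) had a mean of 0.532 RPKM with 0 counts in 1 library of the table, and its fold changes are imprecise.

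The promoters of 4 members are shown because the classes differ in motif content: a pair of B-type cyclins and the inhibitor KRP1, which hold matches, and a D-type cyclin, which holds none. Each window runs from 250 bases before to 50 bases after the annotated start, in the gene's sense, read from the TAIR10.1 genome. Capitals mark the mitosis-specific activator (MSA) core AACGG or its reverse complement CCGTT, which MYB3R factors bind, and the ABA-responsive element (ABRE) core ACGTG or CACGT, which in KRP1 overlap as CACGTG.
CYCB1;3 (AT3G11520, chr3:3627224-3627523, minus strand): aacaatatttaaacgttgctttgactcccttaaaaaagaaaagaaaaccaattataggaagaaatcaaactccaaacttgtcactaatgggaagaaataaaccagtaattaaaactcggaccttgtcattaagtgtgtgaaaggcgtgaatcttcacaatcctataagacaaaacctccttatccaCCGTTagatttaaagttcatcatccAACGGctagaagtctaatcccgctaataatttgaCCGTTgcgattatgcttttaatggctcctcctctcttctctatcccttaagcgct
CYCB1;4 (AT2G26760, chr2:11400868-11401167, plus strand): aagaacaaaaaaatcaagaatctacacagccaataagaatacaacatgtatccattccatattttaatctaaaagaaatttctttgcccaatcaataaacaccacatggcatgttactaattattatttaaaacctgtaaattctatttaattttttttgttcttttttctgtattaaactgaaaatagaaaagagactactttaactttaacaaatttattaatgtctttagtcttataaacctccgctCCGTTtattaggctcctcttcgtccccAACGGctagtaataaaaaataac
CYCD3;2 (AT5G67260, chr5:26835889-26836188, plus strand): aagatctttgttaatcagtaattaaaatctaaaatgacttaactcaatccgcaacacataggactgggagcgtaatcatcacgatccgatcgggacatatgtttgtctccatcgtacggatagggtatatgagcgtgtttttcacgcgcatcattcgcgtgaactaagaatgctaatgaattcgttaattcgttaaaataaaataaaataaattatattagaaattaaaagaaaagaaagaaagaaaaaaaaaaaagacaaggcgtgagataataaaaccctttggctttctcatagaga
KRP1 (AT2G23430, chr2:9978041-9978340, minus strand): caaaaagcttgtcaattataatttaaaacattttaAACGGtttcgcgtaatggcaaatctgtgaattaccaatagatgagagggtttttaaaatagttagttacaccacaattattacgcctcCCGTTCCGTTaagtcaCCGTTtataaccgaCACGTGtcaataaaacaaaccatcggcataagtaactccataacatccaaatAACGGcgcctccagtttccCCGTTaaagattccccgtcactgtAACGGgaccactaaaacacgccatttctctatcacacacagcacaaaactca
The 3 matches in CYCB1;3 start at -64, -39 and -5 from the transcript start, and the 2 in CYCB1;4 start at 1 and 28. KRP1 holds 7 MSA cores between -215 and -2, 1 pair directly adjoining, and its overlapping ABRE cores start at -97 and -96.

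Counted on both strands, the MSA core occurred in 24.7% of 27443 protein-coding nuclear promoters of the same length, and 4.89% held at least 2. Among the B-type cyclins 8 of 9 promoters held it and 7 held at least 2, the exception being CYCB2;4 (AT1G76310). It was found in 3 of 7 A-type cyclins, 1 of 10 D-type cyclins, 1 of 5 CDKs, 5 of 7 KRP genes and neither SIM nor SMR1. The ABRE core occurred in 26.7% of all promoters and in 9 of 40 members. The exact letters TTTCCCGC, searched as an E2F site, occurred in 0.798% of all promoters and in 0 members. Variants of these letters were not searched, so other E2F sites could be present. Matches are letters in a window and no evidence of binding. KRP7 held 5 MSA cores and KRP1 held 7. After ABA, KRP1 rose in both genotypes, while the fall fitted for KRP7 did not pass the test in either. A link of the core to these changes was not tested. Of the 8 members that fell in both genotypes, 3 held an MSA core.

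The first question was how the module responded to ABA in each genotype. Of the 25 tested cyclins 8 fell in both genotypes, a further 4 passed the test only in the wild-type comparison and 3 only in the mutant one, and KRP1 was the only member that rose. With edgeR's quasi-likelihood test and Benjamini-Hochberg adjustment over all 20924 tested genes at 0.05, 14 of 39 members changed in wild type, 13 falling and 1 rising. Over all genes 30.9% were called in that comparison, 17.0% higher and 14.0% lower. In hda9-1, 13 members changed, 12 falling and 1 rising, beside 41.9% of all genes, 23.3% higher and 18.6% lower. The total share of members called was thus near or below the background, while 12 of 25 tested cyclins in wild type and 11 of 25 in hda9-1 were called lower. The median standard error (SE) was 0.22 log2 for tested members and 0.15 for all tested genes in each genotype. Smaller changes were thus harder to detect among the members.

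**Figure D1:**
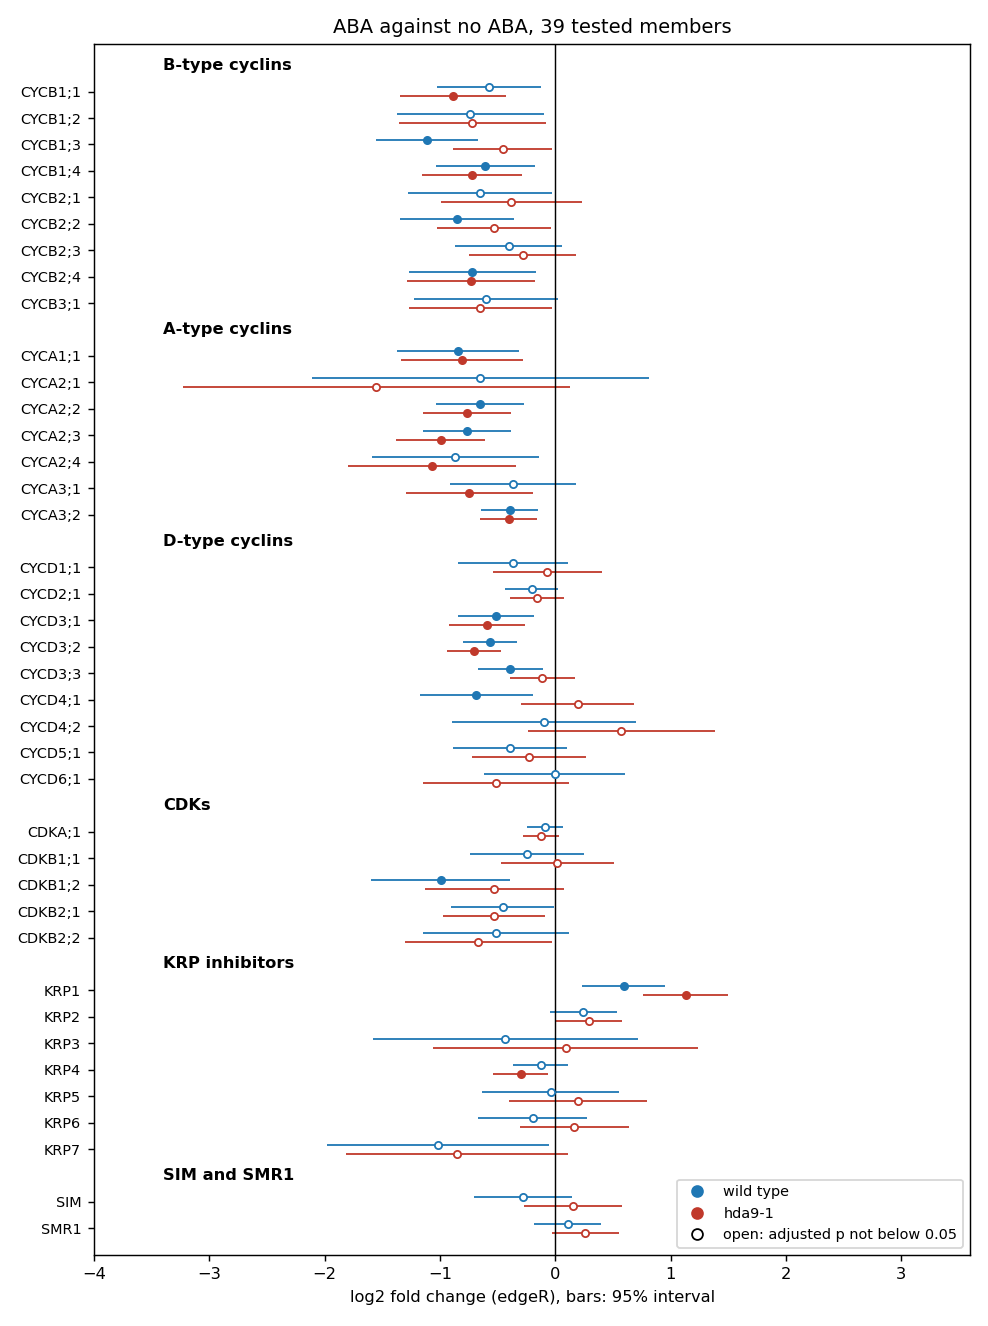
Log2 fold change after ABA for the 39 tested members, by class, in wild type (blue) and hda9-1 (red). The points are edgeR estimates, the bars 95% intervals, and filled points have an adjusted p below 0.05. All 25 cyclins have negative estimates in wild type, that of CYCD6;1 almost at 0. KRP1 is the only filled point to the right, and CDKA;1 lies close to 0 with narrow intervals.

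All 25 tested cyclins had a negative fitted change in wild type and 23 of 25 in hda9-1, where 52.4% and 48.9% of all tested genes were below 0. The wild-type changes of CYCD6;1 and CYCD4;2 were near 0, at -0.004 and -0.10 log2. Their sign changed in 10 and 3 of the other fits. Since the cyclins were measured in the same libraries, their signs are not 25 independent observations. The median log2 change of all genes was -0.02 in wild type and 0.01 in hda9-1. Both ABA counts depended on single libraries. Without wild type with ABA replicate 3 the wild-type count was 5, and without untreated wild-type replicates 1, 2 and 3 in turn it was 7, 9 and 9. Without untreated hda9-1 replicate 3 the hda9-1 count was 7, and without untreated hda9-1 replicate 1 it was 20. In each of these fits no cyclin was called higher, and at least 23 cyclins had a negative fitted change.

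Among the mitotic B-type cyclins, 4 of 9 fell in wild type and 3 fell in hda9-1, with 2 of them in common. The wild-type count was 2 without any 1 untreated wild-type library or ABA replicate 3. The hda9-1 count was 1 without its untreated replicate 3, 7 without its untreated replicate 1 and 5 without its ABA replicate 3. The class median was -0.65 log2 in each genotype. CYCB1;3, transcribed from chr3:3625286-3627273 on the minus strand of TAIR10.1, had the largest fitted change of the class in wild type. Its levels were 6.72, 6.26 and 7.57 CPM without ABA and 3.54, 3.72 and 2.25 CPM with ABA, with no overlap between the groups. That is a log2 change of -1.11 (SE 0.21, adjusted p = 0.00070), and the call held with any single library left out. In hda9-1 it was at 5.46, 7.42 and 7.93 CPM without ABA and at 5.08, 4.42 and 5.67 CPM with ABA, so the groups overlapped. The log2 change there was -0.46 (SE 0.20, adjusted p = 0.084).

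CYCB1;4, whose promoter is shown above, fell in both genotypes. In wild type its levels were 8.94, 9.07 and 8.56 CPM before and 7.24, 5.72 and 4.51 CPM after ABA, a log2 change of -0.61 (SE 0.20, adjusted p = 0.032). In hda9-1 they were 6.84, 8.09 and 10.6 CPM before and 4.52, 4.497 and 6.44 CPM after, a log2 change of -0.72 (SE 0.20, adjusted p = 0.0097). The groups did not overlap in either genotype, but the wild-type call was lost without any 1 of 5 wild-type libraries, replicate 1 with ABA being the exception, and the hda9-1 call without untreated replicate 3.

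CYCB1;1 (AT4G37490), the cyclin used widely as a marker of cells in G2 and mitosis, was called in hda9-1 and narrowly missed the threshold in wild type. Its hda9-1 levels were 4.22, 5.95 and 6.48 CPM without ABA and 2.68, 2.84 and 3.51 CPM with ABA, a log2 change of -0.88 (SE 0.22, adjusted p = 0.0038) that held without any single library. In wild type it stood at 6.36, 5.57 and 5.75 CPM without and 3.35, 5.08 and 3.44 CPM with ABA, a log2 change of -0.57 (SE 0.21, adjusted p = 0.052). These groups did not overlap in either genotype. Of 12 alternatives that kept all libraries of the groups compared, 8 called CYCB1;1 lower in wild type, limma-voom and DESeq2 among them.

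CYCB2;2 (AT4G35620) went from 8.50, 8.72 and 8.03 CPM to 5.51, 5.72 and 2.73 CPM in wild type, where its log2 change of -0.85 (SE 0.23, adjusted p = 0.011) held without any single library. In hda9-1 it went from 6.24, 7.65 and 8.97 CPM to 5.77, 4.29 and 5.78 CPM, a log2 change of -0.53 (adjusted p = 0.079). Replicate 3 was the lowest wild-type library with ABA for it, as it was for the other cyclins of the class that fell in wild type. CYCB2;4 fell by 0.72 log2 in wild type and by 0.73 in hda9-1, with adjusted p values of 0.047 and 0.036 that 6 and 4 single-library exclusions respectively ended, and without hda9-1 with ABA replicate 3 the second fall was 1.15 log2. CYCB1;2, the most abundant B-type cyclin, had log2 changes of -0.74 and -0.72 with wide intervals and adjusted p values of 0.077 and 0.067. Of 12 alternatives that kept all libraries of the groups compared, 3 called it lower in wild type and 2 in hda9-1, limma-voom and DESeq2 among them in each. The 3 remaining B-type cyclins ranged from -0.65 to -0.28 without a call.

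**Figure D2:**
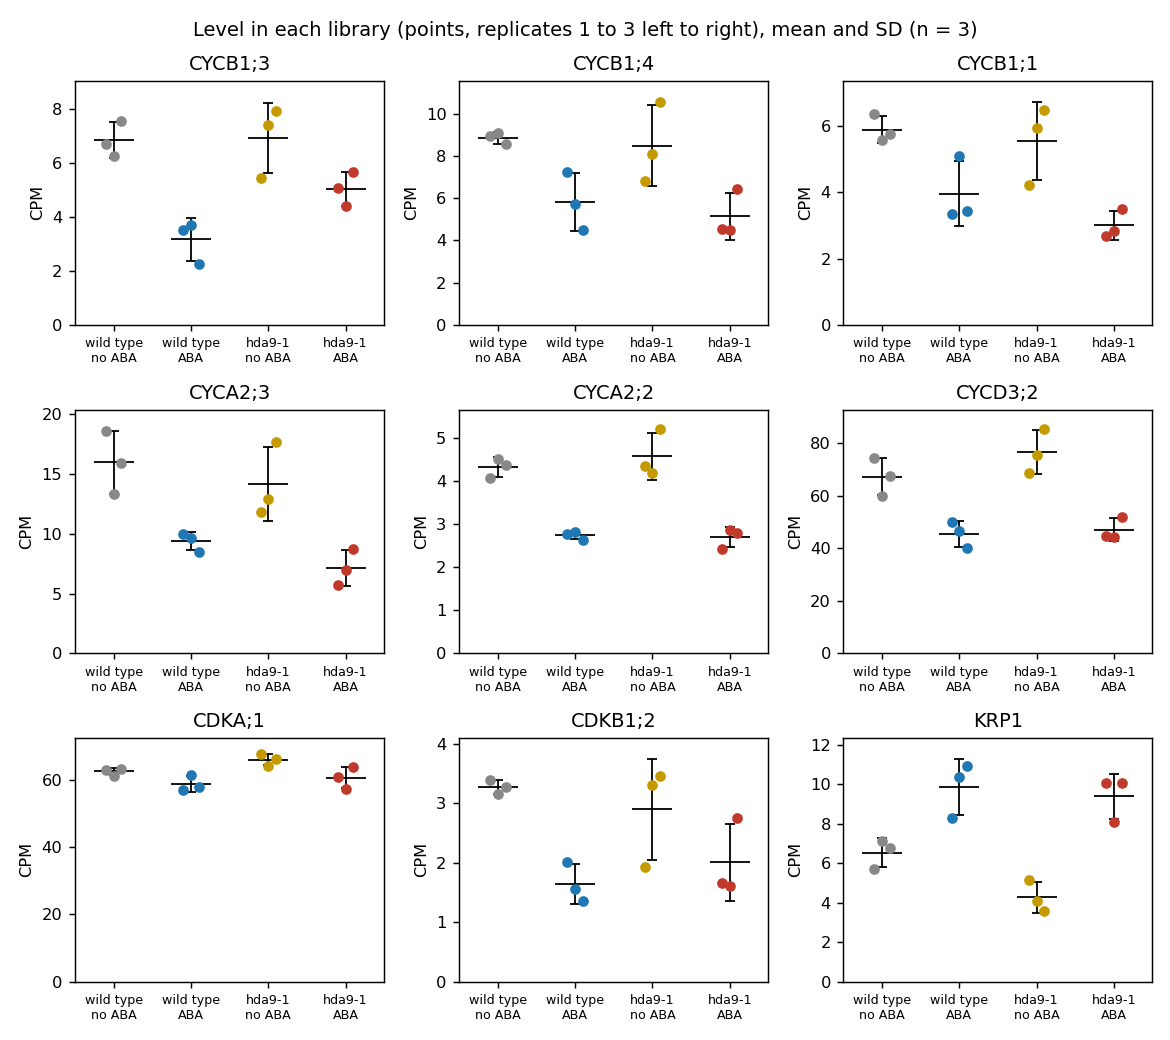
Levels in CPM of 9 members in every library, by group, with group mean and SD (n = 3), each panel starting at 0. All 6 cyclins shown have their ABA libraries below the untreated libraries in wild type, the CDKA;1 libraries stay between 57.1 and 67.7 CPM, and KRP1 is higher with ABA in both genotypes.

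Among the A-type cyclins 4 of 7 fell in wild type and 6 of 7 in hda9-1, all 4 wild-type calls being among the 6. The wild-type count was 2 without wild type with ABA replicate 3, and the hda9-1 count was 3 without untreated replicate 3 or ABA replicate 1 or 2 of hda9-1. The class median was -0.65 log2 in wild type and -0.81 in hda9-1. CYCA2;3 (AT1G15570, chr1:5361865-5365559, plus strand), which acts with CDKB1 kinases to hold cells in the mitotic cycle and out of endoreplication, fell from 18.6, 13.4 and 15.9 CPM to 9.99, 9.66 and 8.50 CPM in wild type, a log2 change of -0.77 (SE 0.18, adjusted p = 0.0039). In hda9-1 it fell from 11.9, 12.9 and 17.7 CPM to 5.70, 6.93 and 8.71 CPM, a log2 change of -0.99 (SE 0.18, adjusted p = 0.00042). No ABA library reached an untreated library of its genotype, and both calls held with any single library left out.

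The levels of CYCA2;2 (AT5G11300) were 4.07, 4.52 and 4.37 CPM without and 2.78, 2.82 and 2.63 CPM with ABA in wild type, and 4.34, 4.18 and 5.20 CPM without and 2.42, 2.86 and 2.801 CPM with ABA in hda9-1. The log2 changes were -0.65 (SE 0.18, adjusted p = 0.011) and -0.76 (SE 0.18, adjusted p = 0.0030), and both calls held without any single library. The abundant CYCA3;2 changed less. It went from 28.6, 31.4 and 30.9 to 22.2, 26.1 and 20.8 CPM in wild type and from 27.6, 30.4 and 30.0 to 18.9, 25.9 and 21.7 CPM in hda9-1.

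Its log2 changes were -0.40 (SE 0.12, adjusted p = 0.016) and -0.41 (SE 0.12, adjusted p = 0.011), with no overlap in either genotype, but leaving out any 1 of 4 libraries ended the wild-type call and leaving out hda9-1 with ABA replicate 1 ended the other. CYCA1;1 (AT1G44110), the A1-type mitotic cyclin, went from 12.4, 11.6 and 9.56 to 6.58, 7.96 and 4.17 CPM in wild type and from 7.50, 9.52 and 13.4 to 4.94, 5.19 and 7.24 CPM in hda9-1. Its log2 changes were -0.84 (SE 0.25, adjusted p = 0.017) and -0.81 (SE 0.25, adjusted p = 0.017). The first call was lost without untreated replicate 1 or ABA replicate 3 of wild type, and the second without untreated replicate 3 or ABA replicate 1 or 2 of hda9-1. CYCA2;4 (AT1G80370) and CYCA3;1 (AT5G43080) fell in hda9-1, by 1.07 and 0.74 log2, and had changes of -0.87 and -0.37 in wild type that were not called. Each of these hda9-1 calls was lost without any 1 of 3 hda9-1 libraries and in the fit of the 2 groups alone (largest adjusted p 0.088 and 0.13). For the first gene the hda9-1 groups overlapped, and its fall was 1.61 log2 without ABA replicate 3. The wild-type groups of CYCA2;4 did not overlap (edgeR adjusted p = 0.066). Of 12 alternatives that kept all libraries of the groups compared, 4 called it lower in wild type, limma-voom and DESeq2 among them. The remaining A-type cyclin, the lowly expressed one named above, had fitted changes of -0.65 and -1.55 with 95% intervals that spanned 0 (-2.11 to 0.81 and -3.23 to 0.13).

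The D-type cyclins, which link growth signals to cell cycle entry, were more mixed. In wild type 4 of 9 tested members fell and in hda9-1 2 fell, with class medians of -0.39 and -0.16 log2. The wild-type count was 1 without untreated replicate 1 or ABA replicate 3 and 2 without untreated replicate 2 or 3 or ABA replicate 1. The CYCD3 genes, known for keeping leaf cells dividing in response to cytokinin, accounted for all calls but 1. CYCD3;2 (chr5:26836139-26839597, plus strand) went from 74.3, 60.1 and 67.4 CPM to 49.9, 46.5 and 39.98 CPM in wild type, a log2 change of -0.56 (SE 0.11, adjusted p = 0.00098). In hda9-1 it went from 68.8, 75.5 and 85.3 CPM to 44.7, 44.3 and 52.1 CPM, a log2 change of -0.70 (SE 0.11, adjusted p = 0.00011). Groups were apart in both genotypes, both calls held without any single library, and its promoter shown above holds none of the 3 motifs.

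CYCD3;1 (AT4G34160) went from 37.0, 28.1 and 32.5 CPM to 24.2, 23.6 and 20.7 CPM in wild type and from 24.4, 27.6 and 37.3 CPM to 17.8, 18.3 and 23.2 CPM in hda9-1. Its log2 changes were -0.51 (SE 0.15, adjusted p = 0.020) and -0.59 (SE 0.15, adjusted p = 0.0065). The call in hda9-1 held without any single library, and that in wild type was lost without untreated replicate 1 or 3 or ABA replicate 3. CYCD4;1 (AT5G65420), a cyclin known for stomatal lineage divisions in the hypocotyl, went from 4.81, 5.21 and 3.44 CPM to 2.47, 3.505 and 2.38 CPM in wild type and from 3.16, 3.63 and 3.37 CPM to 3.55, 4.84 and 3.22 CPM in hda9-1. The wild-type log2 change was -0.69 (SE 0.23, adjusted p = 0.033), lost without any 1 of 4 libraries, and the value in hda9-1 was 0.19 (adjusted p = 0.53). In wild type the groups overlapped by 1 ABA library.

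CYCD3;3 (AT3G50070) fell by 0.39 log2 in wild type (adjusted p = 0.036), a call that 5 of 6 wild-type exclusions ended, and changed by -0.11 in hda9-1 (adjusted p = 0.52). The abundant CYCD2;1 (AT2G22490) had changes of -0.21 (95% interval -0.44 to 0.03) and -0.16 (-0.39 to 0.07). The 4 remaining D-type cyclins were not called, with fitted changes from -0.51 to 0.57.

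CDKA;1 (AT3G48750, chr3:18071454-18074641, plus strand), the Arabidopsis CDK with the canonical PSTAIRE motif, active at both main transitions of the cycle, was not called in either genotype. Its libraries lay at 63.0, 61.3 and 63.3 CPM, then 57.1, 61.5 and 57.9 CPM with ABA in wild type, and at 67.7, 64.2 and 66.4 CPM, then 60.9, 57.5 and 63.8 CPM with ABA in hda9-1. The 95% intervals of its log2 change were -0.24 to 0.07 in wild type and -0.28 to 0.03 in hda9-1, where the ABA libraries lay just below the untreated ones. In hda9-1 it was called lower with upper-quartile scaling (-0.19 log2, adjusted p = 0.048) and after each library was corrected for its dependence on exon length and GC content (-0.24 log2, adjusted p = 0.0052). Among the CDKB kinases, which accumulate around G2 and mitosis, there was 1 call. CDKB1;2 (AT2G38620) went from 3.39, 3.15 and 3.27 CPM to 2.02, 1.56 and 1.36 CPM in wild type, a log2 change of -0.99 (SE 0.29, adjusted p = 0.014), a call that was lost without wild type with ABA replicate 3 (adjusted p = 0.069). In hda9-1 it went from 1.92, 3.31 and 3.45 CPM to 1.66, 1.60 and 2.76 CPM, with overlap and a log2 change of -0.53 (adjusted p = 0.15).

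CDKB2;1 (AT1G76540) and CDKB2;2 (AT1G20930) had log2 changes of -0.46 and -0.51 in wild type and of -0.53 and -0.67 in hda9-1, with adjusted p values from 0.053 to 0.21. CDKB1;1 (AT3G54180) was at -0.25 and 0.02. The pair of CDKB1 genes and the pair of CDKB2 genes are close paralogs, and how reads shared between such pairs were counted is not given in the sources used here. After the length and GC correction 2 of 5 CDKs were called lower in hda9-1 in place of 0, the A-type kinase and CDKB2;1, and the latter was also called with 7 other scalings, filters or tools, limma-voom and DESeq2 among them.

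KRP1 (chr2:9976590-9978090, minus strand, TAIR10.1) was the only member called higher after ABA. Its levels in wild type were 5.71, 7.12 and 6.77 CPM without ABA and 8.26, 10.4 and 10.9 CPM with ABA, a log2 change of 0.59 (SE 0.17, adjusted p = 0.014). In hda9-1 they were 5.14, 4.09 and 3.59 CPM without ABA and 10.06, 8.06 and 10.04 CPM with ABA, a log2 change of 1.13 (SE 0.17, adjusted p = 8.3e-05), which was 0.69 after the length and GC correction (adjusted p = 0.0013). Every ABA library exceeded every untreated library, and the means rose to 151% and 220% of the untreated level. The call in hda9-1 held without any single library, whereas that in wild type was lost without untreated replicate 1 or ABA replicate 3 (largest adjusted p = 0.070).

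No other KRP gene was called higher after ABA, though KRP2 had positive fitted changes in both genotypes. For KRP2 in hda9-1 the sign changed in 2 alternatives (lowest log2 change -0.02), and it was called higher without untreated replicate 2. KRP4 (AT2G32710), the most abundant KRP, was at 23.4, 25.6 and 22.6 CPM, then 24.2, 19.1 and 22.4 CPM with ABA in wild type, and at 26.3, 26.5 and 28.2 CPM, then 23.9, 23.1 and 18.9 CPM with ABA in hda9-1. It fell by 0.30 log2 in hda9-1 (SE 0.11, adjusted p = 0.042), a call lost without any 1 of 5 libraries, and changed by -0.12 in wild type (adjusted p = 0.44). KRP4 overlaps CB5-B, a cytochrome b5 gene on the other strand, over 926 bases, and that gene changed after ABA by -0.39 log2 in wild type (adjusted p = 0.043) and by 0.31 in hda9-1 (adjusted p = 0.085), and its log2 difference of untreated hda9-1 from wild type was -0.56 (adjusted p = 0.016). KRP2 (AT3G50630) had changes of 0.24 and 0.29, and KRP7 (AT1G49620), at 0.392 to 1.52 CPM, had changes of -1.01 and -0.85, none of them called. KRP3, KRP5 and KRP6 lay between -0.43 and 0.20. The class median was -0.12 in wild type and 0.17 in hda9-1.

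Neither SIAMESE family gene was called. SMR1 (AT3G10525) was at 10.12, 9.91 and 12.4 CPM, then 12.6, 10.7 and 11.8 CPM with ABA in wild type, and at 10.04, 9.93 and 8.11 CPM, then 12.2, 10.4 and 11.01 CPM with ABA in hda9-1. Its log2 change was 0.11 in wild type (95% interval -0.18 to 0.40) and 0.26 in hda9-1 (-0.03 to 0.55, adjusted p = 0.14). SIM (AT5G04470) was at -0.28 (-0.70 to 0.15) and 0.16 (-0.27 to 0.58).

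Inhibitor genes were short, with a median exon length of 1195 bases for KRP and 809 for SIM and SMR1 against 1825 for B-type cyclins and 1766 for all tested genes. With the length and GC correction, the hda9-1 medians of the KRP class and of SIM with SMR1 moved from 0.17 and 0.21 to -0.06 and -0.21, so the sign of these 2 medians depends on that choice. The cyclin medians kept their sign, with B-type values of -0.71 and -0.64 after removal.

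Summed over members, B-type cyclins with ABA were at 63.0% of their untreated CPM in wild type and 66.7% in hda9-1, and A-type cyclins at 66.1% and 62.5%. D-type cyclins were at 74.7% and 76.4%, CDKB kinases at 72.1% and 72.6%, and all 5 CDKs, most of it the A-type kinase, at 86.3% and 85.2%. The hda9-1 groups overlapped for the B-type sum, with ABA replicate 3 at 74.7 CPM and untreated replicate 1 at 66.2 CPM. These 2 libraries also overlapped for the CDKB sum (34.4 and 26.7 CPM) and the sum of all CDKs (98.2 and 94.3 CPM). KRP sums were at 103.5% and 104.2%, and SIM with SMR1 at 95.8% and 115.8%. The A- and B-type sum was 171, 153 and 156 CPM without and 110, 116 and 83.0 CPM with ABA in wild type, with no overlap. In hda9-1 it was 126, 156 and 191 CPM without and 87.4, 95.9 and 123 CPM with ABA, and the highest ABA library came close to the lowest untreated one. Without untreated hda9-1 replicate 3 the A- and B-type sum with ABA was at 72.7% of the untreated level, against 64.8% with it, and without wild type with ABA replicate 3 it was at 70.6% against 64.4%.

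**Figure D3:**
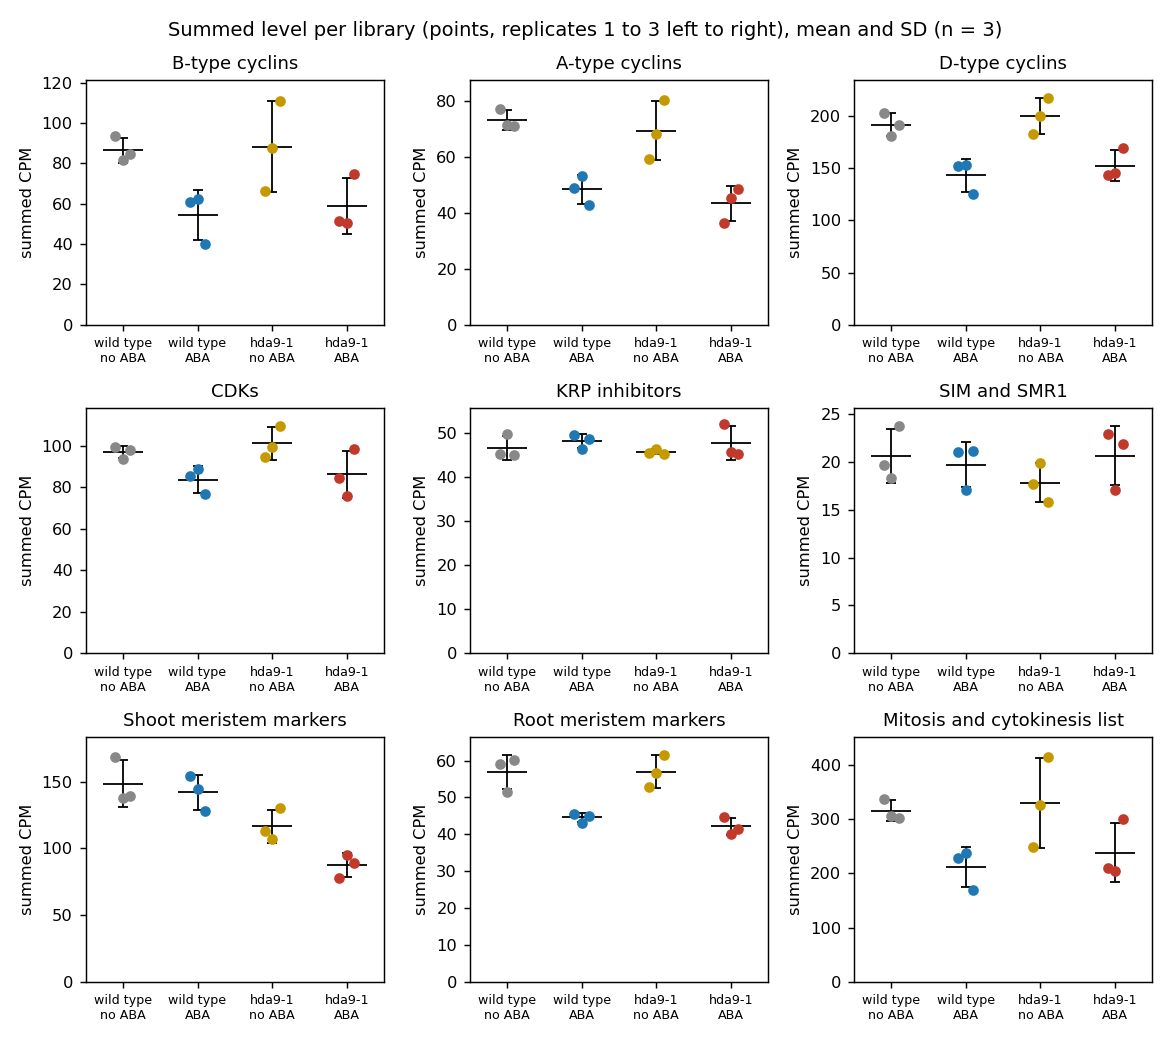
Summed CPM per library for the 6 classes and for 3 lists of other genes, by group, with mean and SD (n = 3), each panel starting at 0. Mean A- and B-type cyclin sums are lower in the ABA groups, with untreated hda9-1 replicate 3 the highest library. The B-type libraries with and without ABA overlap in hda9-1. The KRP sums lie between 44.9 and 52.0 CPM in all groups.

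Markers of tissues that hold dividing cells were called in part, beside 14.0% of all genes called lower in wild type and 18.6% in hda9-1. Of 5 root meristem markers 2 fell in wild type and 3 in hda9-1, and their sum lay at 51.5 to 60.2 CPM without and 43.1 to 45.6 CPM with ABA in wild type and at 52.8 to 61.5 CPM without and 40.2 to 44.7 CPM with ABA in hda9-1. PLT1, a regulator of the root stem cell niche, fell by 1.00 log2 in wild type, and SHR, which acts in root patterning, fell by 0.78 in hda9-1. The wild-type count was 0 or 1 without 5 of the 6 wild-type libraries, the exception being untreated replicate 2. Of 8 tested shoot meristem and boundary markers 1 fell in wild type and 4 in hda9-1, AIL6, an AINTEGUMENTA-like factor, first by p in each with changes of -0.57 and -0.64. The hda9-1 count was 0 by edgeR without untreated replicate 3 or without ABA replicate 1 of hda9-1, with 2 and 1 markers lower at an unadjusted p below 0.05, and it was 1 and 2 without untreated replicate 2 and ABA replicate 2.

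The shoot meristem sum, most of it CLV1, lay at 137 to 169 CPM and 128 to 154 CPM without and with ABA in wild type and at 107 to 131 CPM and 77.8 to 95.3 CPM in hda9-1. Between genotypes CLV1 alone of this list was called, lower in hda9-1 both without and with ABA. CLV3 was at 0 in all wild-type libraries and at most 0.120 CPM elsewhere. STM, a shoot meristem gene, was at 4.94 CPM in untreated hda9-1 replicate 3 and between 0.703 and 2.58 CPM in the other libraries, and ANT was highest in that library too, at 18.0 CPM. Of 7 stomatal lineage markers 3 fell in hda9-1, FAMA with the smallest p at -0.66 log2. In wild type edgeR called 0 of the 7 and limma-voom and DESeq2 called 1 each, with 2 lower at an unadjusted p below 0.05 in edgeR. The list's median was -0.42 in wild type and -0.56 in hda9-1. Between genotypes FAMA alone of this list was called, lower in hda9-1 with ABA. The part of tissue makeup in the cyclin values was not tested.

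The next question was how hda9-1 differed from wild type. Few members were called between genotypes. Without ABA 1 of 39 was called, beside 13.5% of all genes (6.98% higher and 6.57% lower). With ABA 2 of 39 were called, beside 12.7% of all genes (7.5% higher and 5.21% lower). The median SE was 0.22 log2 for tested members and 0.15 for all tested genes in both comparisons. Smaller differences were thus harder to detect in this module. KRP1 was the member lower in untreated hda9-1, where its 3.59 to 5.14 CPM lay under all untreated wild-type libraries at 5.71 to 7.12 CPM. The log2 difference was -0.61 (SE 0.17, adjusted p = 0.030). With ABA the genotypes overlapped for KRP1, with a log2 difference of -0.07 (95% interval -0.43 to 0.29). The call without ABA was lost without any 1 of 4 untreated libraries and after removal of length and GC trends (largest adjusted p over all alternatives 0.13).

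With ABA, CYCB1;3 was higher in hda9-1, at 4.42 to 5.67 CPM against 2.25 to 3.72 CPM in wild type, a log2 difference of 0.67 (SE 0.21, adjusted p = 0.046). Without ABA its genotypes differed by 0.02 (95% interval -0.41 to 0.45). CYCD6;1 (AT4G03270, chr4:1431844-1433861, minus strand), a D-type cyclin known from the formative division of root ground tissue under SHR and SCR, was lower in hda9-1. Its levels with ABA were 3.94, 5.32 and 2.57 CPM in wild type and 1.43, 1.92 and 2.45 CPM in hda9-1, a log2 difference of -1.03 (SE 0.30, adjusted p = 0.035).

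Without ABA it was at 4.79, 3.11 and 3.96 CPM in wild type and 2.29, 2.37 and 3.61 CPM in hda9-1, with overlap and a log2 difference of -0.52 (adjusted p = 0.26). The gene overlaps AT4G03260 on the other strand over 847 bases, a gene at 115 CPM or more in every library that differed by -0.09 between the genotypes with ABA. Both calls with ABA were lost under limma-voom and in the fit of the 2 groups alone, and leaving out 9 single libraries in turn ended the B-type call and 3 ended the D-type call (largest adjusted p 0.17 and 0.15). None of the A-type cyclins, CDKs or SIAMESE family genes was called between genotypes in edgeR's fit, and 0 of them without ABA and 2 with ABA had an unadjusted p below 0.05.

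**Figure D4:**
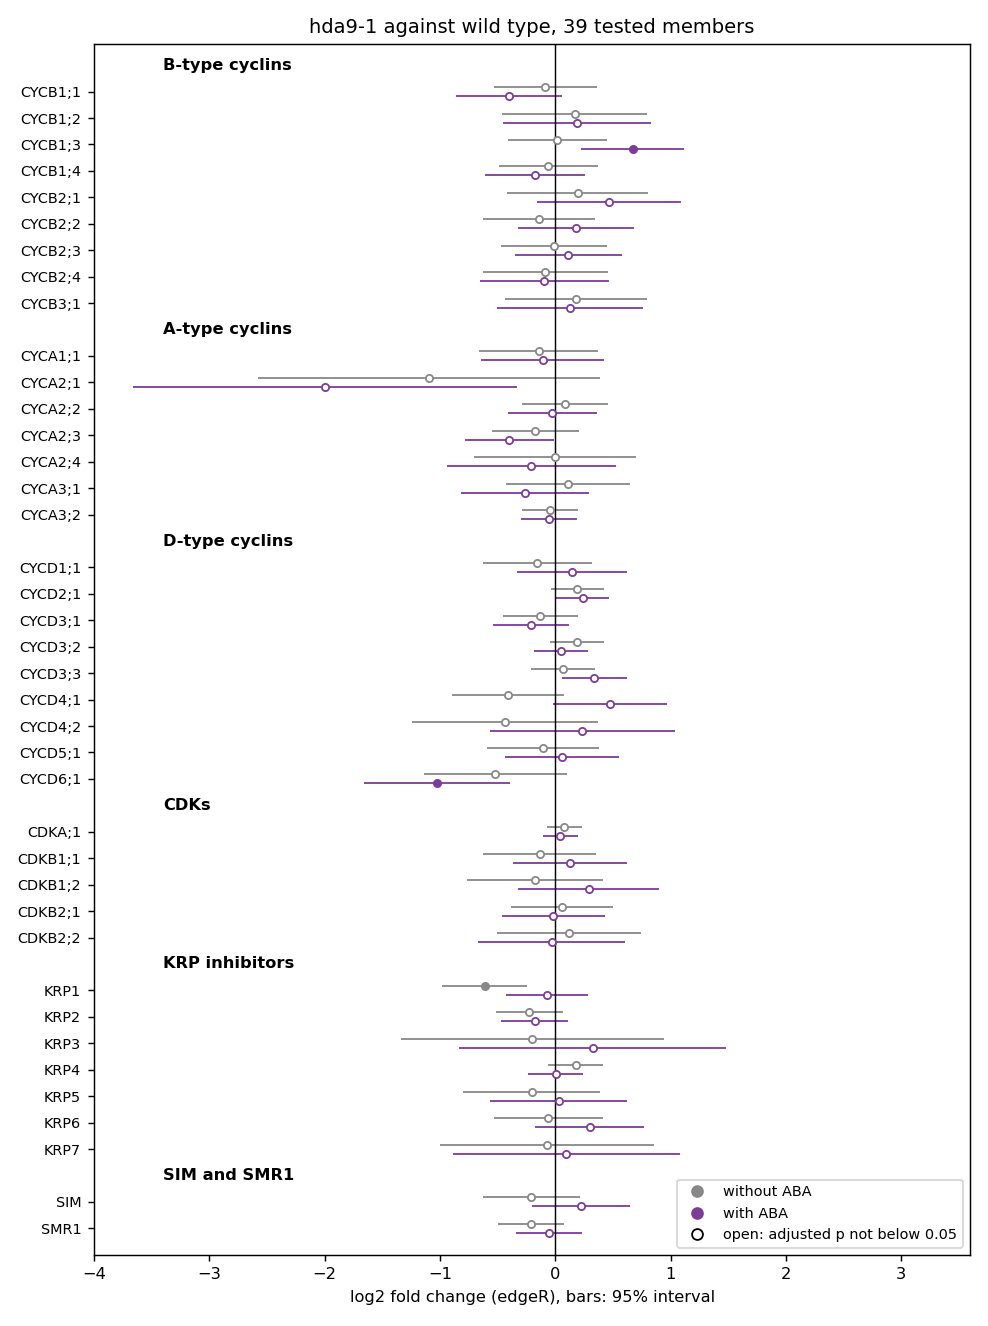
Log2 difference of hda9-1 from wild type for the 39 tested members, by class, without ABA (grey) and with ABA (purple). Points are edgeR estimates, bars 95% intervals, and filled points have an adjusted p below 0.05. The filled points are KRP1 without ABA and 1 B-type and 1 D-type cyclin with ABA, and most other intervals span 0.

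The last comparison tested whether the ABA response itself differed between the genotypes. edgeR called 0 of 39 members and 0.0% of all genes. Limma-voom and DESeq2 also called 0 members, while DESeq2 called 129 of all genes. Without hda9-1 with ABA replicate 2, edgeR called 1612 of 21116 genes and again 0 members. At an unadjusted p below 0.05 there were 3 members, beside 2467 of 20924 genes. They were CYCD4;1 (hda9-1 change minus wild-type change 0.88 log2, 95% interval 0.19 to 1.57), CYCB1;3 (0.65, 0.04 to 1.27) and KRP1 (0.54, 0.03 to 1.05), and their adjusted p values were 0.34, 0.40 and 0.41. Over all alternatives the smallest fitted differences of these 3 were 0.65, 0.46 and 0.24 log2. The 5 members that fell in wild type alone and the 4 that fell in hda9-1 alone were therefore not shown to respond differently. The 95% interval of the difference was -0.47 to 0.19 for CYCD3;2, -0.76 to 0.31 for CYCA2;3 and -0.25 to 0.18 for CDKA;1.

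Other cell cycle genes were read against the same 14.0% and 18.6% of all genes called lower. Of 22 DNA replication genes 10 fell in wild type and 13 in hda9-1 and 0 rose, with medians of -0.46 and -0.54 log2, and RNR1, the large subunit of ribonucleotide reductase, fell by 0.67 and 0.82. Of 23 mitosis and cytokinesis genes 9 fell in each genotype and 1 rose in each, with medians of -0.74 and -0.58. Without wild type with ABA replicate 3 the wild-type counts of these lists were 4 and 2, and the replication count was 6 without untreated replicate 2 or ABA replicate 1. In hda9-1 the replication count was 8 without ABA replicate 1, and the mitosis count was 14 without untreated replicate 1 or ABA replicate 3. ATK5, a spindle kinesin, fell by 0.96 and 1.03, the kinesin TES rose by 0.44 in wild type, and CKS1, a CDK-binding subunit, rose by 0.65 in hda9-1.

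Of 13 regulators of the RBR, E2F/DP and MYB3R families 2 fell and 1 rose in wild type and 3 fell in hda9-1, shares of 15.4% and 23.1% lower that were near those of all genes. The wild-type count was 1 without untreated replicate 1 or ABA replicate 3, and the hda9-1 count was 5 without ABA replicate 2. E2FA, an activator of S phase genes, fell by 0.87 in wild type and by 1.07 in hda9-1, MYB3R1, a factor that binds MSA elements, fell by 0.43 in hda9-1, and RBR1 rose by 0.23 in wild type. RBR1 alone of these 13 was called between genotypes, higher by 0.33 in untreated hda9-1 (edgeR adjusted p = 0.018). Among 7 other inhibitors and APC/C activators, SMR5, a stress-responsive CDK inhibitor, had 0 counts in all 6 untreated libraries and 10, 24 and 16 counts with ABA in wild type and 21, 21 and 43 in hda9-1. Among 8 CDK-activating and other CDK genes, CDKC;1, a transcription elongation kinase, rose by 0.37 in both genotypes, CYCH;1 fell by 0.52 in wild type and CDKE;1 fell by 0.32 in hda9-1. Between genotypes, 1 of these 8 genes was called, CDKE;1, higher by 0.57 in untreated hda9-1. With ABA 1 of 22 replication genes (MCM5, by 0.45) and 1 of 23 mitosis genes (CKS1, by 0.59) were called higher in hda9-1. Over all genes 6.98% were called higher in hda9-1 without ABA and 7.5% with ABA.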

How the data were processed

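Poly(A) RNA of 12 Arabidopsis seedling samples was sequenced with a strand-marking kit in 75 bp reads, per the labels' protocols. The deposited table holds whole-number counts per gene. Per the submitters' processing notes the authors named Bowtie2, Salmon, limma 3.56 and TAIR10, and which tool counted, and with which strand setting, is not given in the sources used here. Depth was 42703802 to 52820930 counts per library.

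Counts were fitted in R 4.3.3 with edgeR 4.0.16: filterByExpr (minimum count 10, minimum total 15) kept 20924 genes, with TMM scaling and 1 robust quasi-likelihood model of 4 group means over 12 samples. The 5 contrasts were tested two-sided with Benjamini-Hochberg adjustment over all tested genes at 0.05, and the scripts' test was checked on simulated data. CPM values are TMM-scaled, and lengths and promoters come from TAIR10.1. Members, lists and tests were chosen with earlier results of these data known. Members were given by library where called, up to 4 per class by smallest p, and 1 per class otherwise; CDKA;1 was added, and further list genes were named after their values were seen. Alternatives were RLE, upper-quartile and library-size scaling, 2 other filters, limma-voom 3.58.1, DESeq2 1.42.0, the 2 groups alone, a replicate block, an adjusted p below 0.01, length and GC trend removal, and each library left out. The 8 SMR identifiers without a symbol in the reference were not used here.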

Additional observations from a re-analysis of the deposited data

How the results depend on the processing

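Of 30 calls of members over the 4 comparisons that gave any, 11 held with each library left out in turn, 9 held in all alternatives, and 0 changed sign. For the ABA response in wild type, called as 14 members, the other scalings, filters, tools and trend removals gave 13 to 20, an adjusted p below 0.01 gave 3, and leaving out 1 library gave 5 to 17. For the ABA response in hda9-1, called as 13, these gave 9 to 18, 7 and 7 to 20. For hda9-1 against wild type without ABA, called as 1, an adjusted p below 0.01 and the removal of length and GC trends, with or without the replicate block, gave 0, and leaving out 1 library gave 0 to 1. With ABA, called as 2, DESeq2 kept both calls and added CYCA2;1. Upper-quartile factors, library size alone and no filter gave 1. Limma-voom, the 2 groups alone, the replicate block with or without trend removal and an adjusted p below 0.01 gave 0. Leaving out 1 library gave 0 to 3. The difference of the ABA responses gave 0 members throughout. Where calls were lost, the cause was not tested, except that a stricter threshold by construction calls fewer. Samples of the same replicate number showed no shared deviation: over 18 same-number pairs, correlations of deviations ran from -0.153 to 0.121 with 1 over 0.1. Over 36 different-number pairs they ran from -0.143 to 0.229 with 3 over 0.1. These values cannot tell whether same-number samples were handled together. With the replicate number as a block, 13, 12, 1, 0 and 0 members were called in the 5 contrasts. Low members such as CYCA2;1, KRP3 and KRP7 had SEs of 0.44 log2 or more, so only large changes were detectable there.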
